A study of Mus musculus with 6 samples.

Results

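The collagen genes of the mouse hippocampus after cerebral ischemia and reperfusion are described here. They were taken as every row of the deposited gene table whose name is Col, a number, a and a number, with nothing more. The rule found 42 genes among 41386, and all 42 had 10 or more reads over the 6 libraries, as had 22996 genes in all. Collagen reads per gene ranged from 53 to 37498 over the 6 libraries. Of 44 collagen names looked for, Col4a3 and Col6a6 had no row of that name and were not analysed here.

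The libraries came from hippocampus of wild type C57BL/6 mice (C57BL/6J in the study's methods), 56 days old and, per those methods, male. In the I/R group the middle cerebral artery was blocked for 1.5 h (MCAO) and blood flow was then restored for 24 h, and the sham group was operated on without the block. Each group had 3 libraries, and each library held the hippocampi of 3 mice from the operated side, so the spread between libraries is one between pools of animals and P-values measure that spread alone. Hippocampus holds many cell types, and in such tissue RNA a change in the number of cells of a type and a change in RNA per cell cannot be told apart.

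Collagens are secreted or membrane proteins in which 3 chains wind into a triple helix. Type IV collagen forms the sheet-like network of basement membranes, which in the brain surround the blood vessels. Fibril-forming collagens build the cables of connective tissue, and in the brain they belong mostly to the meninges, the vessel walls and the choroid plexus. Other members bind to fibrils, form beaded filaments or hexagonal lattices, or stay anchored in the plasma membrane.

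The total count of a library was 37493042 to 44788547. The neuron markers, led by Camk2a and Snap25, were well expressed in all 6 libraries, at a summed level of 1888 to 4842 CPM in I/R and 11062 to 11243 CPM in sham. CPM is a gene's count as a part of 1e6 counted reads, after TMM (trimmed mean of M-values) scaling of the libraries. The libraries differed within each group in choroid plexus RNA. Ttr, the transthyretin gene that marks choroid plexus epithelium, had 68521, 138610 and 810 counts in I/R replicates 1, 2 and 3 and 385, 101015 and 140679 counts in sham replicates 1, 2 and 3. I/R replicate 3 and sham replicate 1 were therefore poor in Ttr, and results are also given with the 4 rich libraries alone. I/R replicate 1 had the highest CPM of its group for 28 of the 42 collagen genes, beside 40.6% of all genes tested, and for 16 of the 20 that rose, beside 73.0% of all genes called higher.

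The quasi-likelihood F-test of edgeR set I/R against sham across all 22996 genes, with Benjamini-Hochberg adjustment. Calls needed an adjusted P under 0.05 together with a change of more than 1.2-fold either way. Of the 42 collagen genes, 20 rose, 1 fell (Col25a1) and 21 were not called. The background was 17.2% of all genes tested called higher, 16.3% called lower and 33.4% called in either direction, so that the 47.6% of collagen genes called higher stood above the share of all genes. A rise of over 2-fold was called for 18 of the 42 collagen genes, beside 8.82% of all genes tested. Among genes called higher, this was 18 of 20 collagen genes and 2028 of 3951 in all. The median log2 fold change was 0.59 for the collagen genes and 0.07 for all genes tested. With scaling by library size alone these medians were 0.88 and 0.35, and 6483 genes were called higher and 1953 lower, in place of 3951 and 3737. The lowest I/R library exceeded the highest sham library for 21 collagen genes, beside 26.1% of all genes, and the reverse held for 1, beside 24.3%. For the remaining 20 the groups overlapped.

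**Figure D1:**
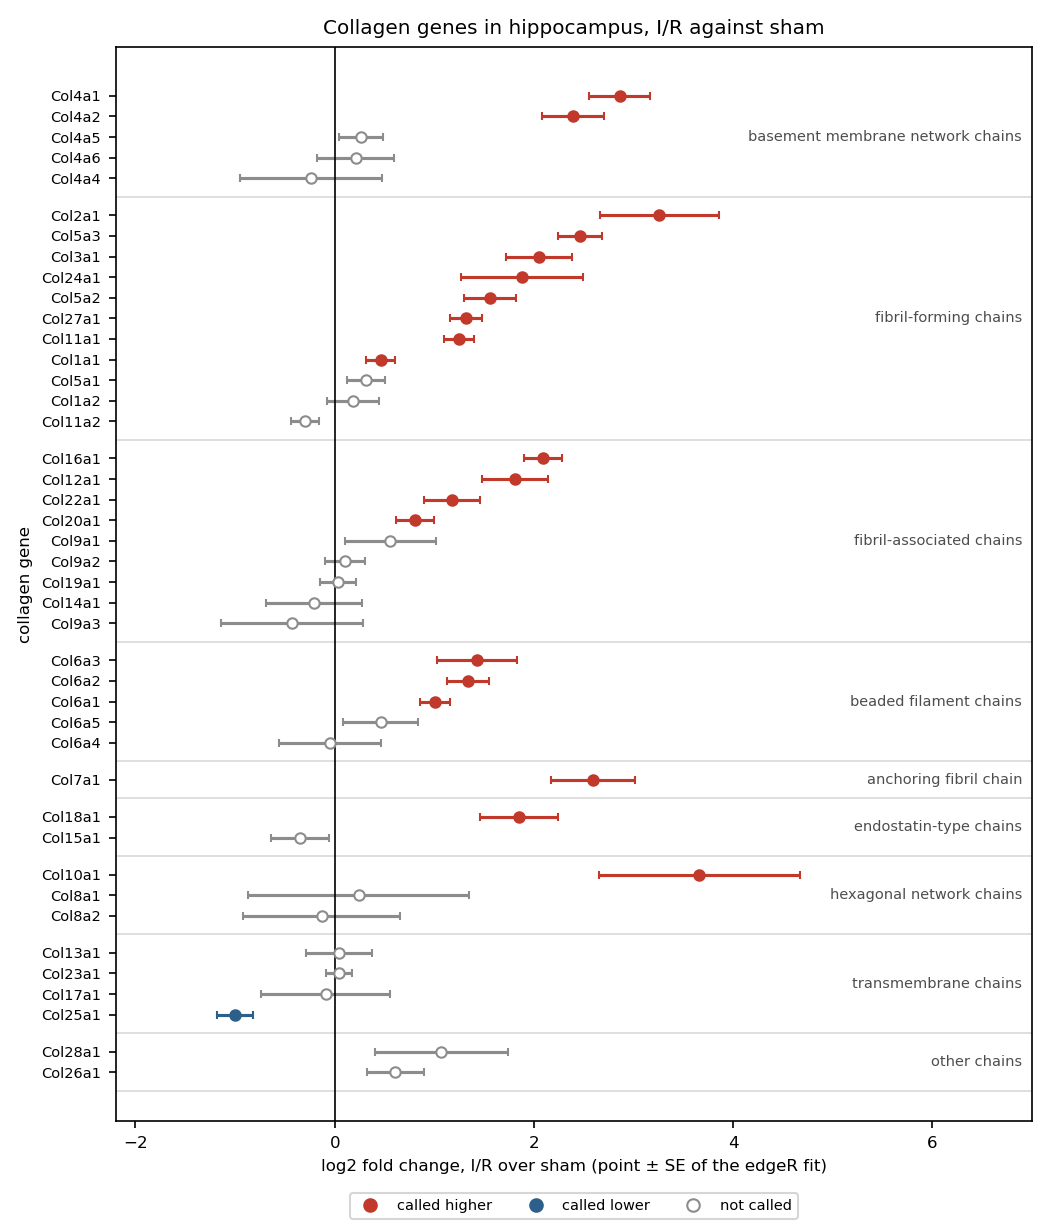
Log2 fold change (x axis, I/R over sham) of each of the 42 collagen genes (y axis), grouped by structural family, with points for the edgeR estimate and bars for its SE. Filled red points rose, the filled blue point (Col25a1, -1.0) fell and open points were not called. Both type IV chains at the top, 2.86 and 2.39, stand apart from the other basement membrane chains.

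Collagen as a whole took a larger part of the libraries in I/R. The 42 genes held 0.157%, 0.0948% and 0.0733% of the counts of I/R replicates 1, 2 and 3, and 0.0355%, 0.0385% and 0.0439% of those of the sham replicates. All 3 I/R libraries were above all 3 sham libraries, and I/R replicate 1 was the highest. Col4a1 and Col4a2 together made up 55.7%, 46.2% and 44.5% of collagen counts in I/R against 21.0%, 17.2% and 17.4% in sham. Without these chains the summed level was 596, 477 and 382 CPM in I/R and 307, 355 and 397 CPM in sham, where the groups overlapped. That remainder sums genes that rose with Col25a1, which fell and was a large part of it in sham. Col25a1 had 36.0, 54.4 and 57.7 CPM in I/R and 112, 87.4 and 96.9 CPM in sham. The remainder also holds Col8a1, Col8a2 and Col9a3, each lowest in the Ttr-poor library of each group. Col9a3, for example, had 28.6, 33.1 and 9.14 CPM in I/R and 10.6, 32.4 and 52.9 CPM in sham. The overlap therefore does not mean that the other chains stayed level. The part of each gene in the overlap was not tested.

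**Figure D2:**
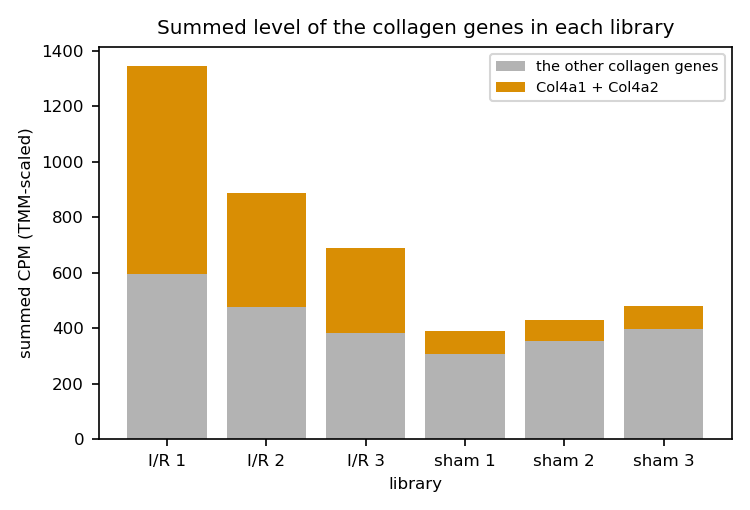
Summed TMM-scaled CPM of the 42 collagen genes (y axis) in each of the 6 libraries (x axis), split into Col4a1 with Col4a2 (orange) and the other collagen genes (grey). The orange part is larger in every I/R library than in any sham library, while the grey part overlaps between the groups, with 382 CPM in I/R replicate 3 and 397 CPM in sham replicate 3. The grey part includes Col25a1, the collagen gene that fell. It also includes Col8a1, Col8a2 and Col9a3, which were lowest in I/R replicate 3 and sham replicate 1 of their groups.

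Col4a1 and Col4a2 encode the chains that form the common type IV trimer of basement membranes. On the BALB/cJ assembly, whose annotation the table uses, Col4a1 (MGP_BALBcJ_G0033332) lies on chromosome 8 from 8258662 to 8373070 on the minus strand, and Col4a2 (MGP_BALBcJ_G0033333) from 8373049 to 8510601 on the plus strand. Their annotated bodies overlap by 22 bases at the 5′ ends, and the pair is a textbook case of genes transcribed away from a shared promoter. The RefSeq promoter windows of both genes are shown because they overlap, with the shared bases read in opposite directions. Each window runs from 250 bases before the gene's start to 50 after it on GRCm38.p6, chr8:11312777-11313076 on the minus strand for Col4a1 and chr8:11312555-11312854 on the plus strand for Col4a2. The capitals mark the 78 bases that lie in both windows.
Col4a1: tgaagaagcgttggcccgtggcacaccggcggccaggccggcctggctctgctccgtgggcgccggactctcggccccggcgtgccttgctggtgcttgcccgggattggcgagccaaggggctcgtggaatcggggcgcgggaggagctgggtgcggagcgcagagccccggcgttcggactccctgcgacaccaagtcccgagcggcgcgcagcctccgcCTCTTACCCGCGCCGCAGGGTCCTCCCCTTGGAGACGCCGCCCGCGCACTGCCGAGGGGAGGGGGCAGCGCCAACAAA
Col4a2: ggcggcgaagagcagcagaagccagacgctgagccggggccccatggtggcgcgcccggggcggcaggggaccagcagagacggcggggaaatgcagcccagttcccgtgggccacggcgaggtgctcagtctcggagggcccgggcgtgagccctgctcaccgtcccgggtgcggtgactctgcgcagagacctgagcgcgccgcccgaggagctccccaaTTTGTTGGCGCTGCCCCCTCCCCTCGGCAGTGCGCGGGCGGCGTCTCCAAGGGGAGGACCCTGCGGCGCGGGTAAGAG
The Col4a1 window held 1 match to the GC box (GGGCGG, either strand) and 1 to the CCAAT box, and the Col4a2 window held 3 and 1. Neither window held TATAAA.

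Col4a1 rose to 396, 216 and 161 CPM in I/R replicates 1, 2 and 3 from 36.6, 33.0 and 36.6 CPM in the sham replicates. The groups lay far apart, and I/R replicate 1 was well above the other two. The log2 fold change was 2.86 (SE 0.31, edgeR adjusted P = 0.000606), a 7.28-fold rise. Col4a2 stood at 354, 193 and 145 CPM in I/R and at 44.9, 40.5 and 47.0 CPM in sham, a 5.23-fold rise (log2 fold change 2.39, SE 0.31, edgeR adjusted P = 0.0011). Both chains had the same order of libraries in I/R. Without I/R replicate 1 the log2 fold changes were 2.42 and 1.94, and in the 4 Ttr-rich libraries they were 3.13 and 2.64.

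Neither chain met the rule for following Ttr that is given with the choroid plexus markers. The mean of the Ttr-rich libraries over the Ttr-poor one was 0.950 for Col4a1 and 0.973 for Col4a2 in sham, and 1.90 and 1.89 in I/R. Markers of endothelium, the cells that line blood vessels, moved with the groups. Of 10 such markers 8 rose, among them Pecam1 and Cdh5, and 1, Slco1a4, fell. Their summed level was 651, 497 and 420.5 CPM in I/R against 299 to 304 CPM in sham, with no marker at 0 in any library and I/R replicate 1 again the highest. The part of these markers in the rise of the collagen genes was not tested.

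The remaining basement membrane chains, Col4a4, Col4a5 and Col4a6, were not called. Their group means were 1.92 to 7.19 CPM, with log2 fold changes of -0.24 (SE 0.71), 0.26 (SE 0.22) and 0.21 (SE 0.39). Col4a5 and Col4a6 lie head to head on chromosome X, 1308 bases apart, and pair in a distinct type IV network. The sign for Col4a4 and Col4a6 changed with the libraries in the fit.

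Of the 11 fibril-forming chains 8 rose and 3 were not called. Col5a3, a chain of type V collagen, which helps to start fibrils, had 28.4, 18.9 and 21.3 CPM in I/R against 5.36, 3.58 and 3.57 CPM in sham. The groups did not overlap, and the rise was 5.49-fold (log2 fold change 2.46, SE 0.22, edgeR adjusted P = 0.000179). Col3a1, the type III collagen of vessel walls and soft connective tissue, had 27.7, 14.7 and 10.8 CPM in I/R against 3.71, 4.82 and 4.33 CPM in sham. It rose 4.14-fold (log2 fold change 2.05, SE 0.33, edgeR adjusted P = 0.00254).

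Col5a2, the second type V chain, lies 26957 bases from Col3a1 on chromosome 1, with the gene ends facing each other. It had 19.5, 13.2 and 9.78 CPM in I/R against 5.05, 5.42 and 3.92 CPM in sham, with log2 fold change 1.56 (SE 0.26, edgeR adjusted P = 0.00203). Col5a1, the main partner chain of Col5a2, had 10.8, 10.1 and 7.84 CPM in I/R against 7.06, 9.27 and 6.93 CPM in sham. Its groups overlapped, and its log2 fold change of 0.31 (SE 0.19) was not called (edgeR adjusted P = 0.239). With scaling by library size alone it was called at 0.59.

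Type I collagen is the most abundant fibril protein of the body. Col1a1 had 16.8, 15.5 and 13.1 CPM in I/R and 9.53, 11.1 and 12.4 CPM in sham. These libraries came close without overlapping, and the log2 fold change of 0.46 (SE 0.15) was called at an edgeR adjusted P of 0.0463. That call was lost without I/R replicate 2 (adjusted P = 0.12), without sham replicate 1 (0.159), 2 (0.119) or 3 (0.0582), with upper quartile scaling (0.0524) and in the Ttr-rich libraries alone (0.107). Col1a2 had 30.4, 20.6 and 15.2 CPM in I/R and 14.6, 20.3 and 23.6 CPM in sham. The groups overlapped widely, with log2 fold change 0.18 (SE 0.26, edgeR adjusted P = 0.646).

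Col11a1, a minor fibril chain best known from cartilage, had 10.8, 10.3 and 11.0 CPM in I/R against 4.61, 4.70 and 4.12 CPM in sham. The libraries of each group were almost level, and the log2 fold change was 1.25 (SE 0.15, edgeR adjusted P = 0.000536). Its partner Col11a2 had 18.1, 14.8 and 13.2 CPM in I/R and 20, 18.0 and 18.9 CPM in sham. It was not called (log2 fold change -0.30, SE 0.14, edgeR adjusted P = 0.131), but was called lower without I/R replicate 1, at -0.43 (adjusted P = 0.00664). Col27a1, another fibril-forming chain, had 16.7, 16.2 and 13.1 CPM in I/R against 5.61, 5.76 and 7.05 CPM in sham, with log2 fold change 1.32 (SE 0.16, edgeR adjusted P = 0.000583).

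Another pair of fibril-forming chains rose at low levels. Col2a1, the main cartilage collagen, had 7.63, 1.77 and 3.01 CPM in I/R against 0.283, 0.348 and 0.673 CPM in sham. I/R replicate 1 was far above the others. The log2 fold change was 3.26 (SE 0.60, edgeR adjusted P = 0.00419), and without I/R replicate 1 it was 2.47 (adjusted P = 0.000107). Col24a1 had 0.432, 0.872 and 0.921 CPM in I/R against 0.257, 0.273 and 0.0585 CPM in sham. It was called at a log2 fold change 1.88 (SE 0.61, edgeR adjusted P = 0.0411), but no longer without I/R replicate 2 (adjusted P = 0.113) or 3 (0.112), without sham replicate 1 (0.0778), 2 (0.0749) or 3 (0.0976), with Ttr as a covariate (0.051) or in the Ttr-rich libraries alone (0.158).

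Markers of meningeal and perivascular fibroblasts, the main makers of fibrillar collagen in the brain, did not move one way. Of 10 such markers 4 rose (Dcn, Lum, Mgp and Bgn), 2 fell (Fmod and Ogn) and 4 were not called. Their summed level was 316 to 437 CPM in I/R and 265 to 451 CPM in sham, with none at 0 in any library. Much of the spread of this sum in sham came from Igf2, which was not called. It had 74.9, 108 and 52.2 CPM in I/R and 65.3, 149.7 and 217 CPM in sham, lowest in the Ttr-poor library of each group. The sum therefore says little about the other markers. Their part in the values of the fibril-forming chains was not tested.

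**Figure D3:**
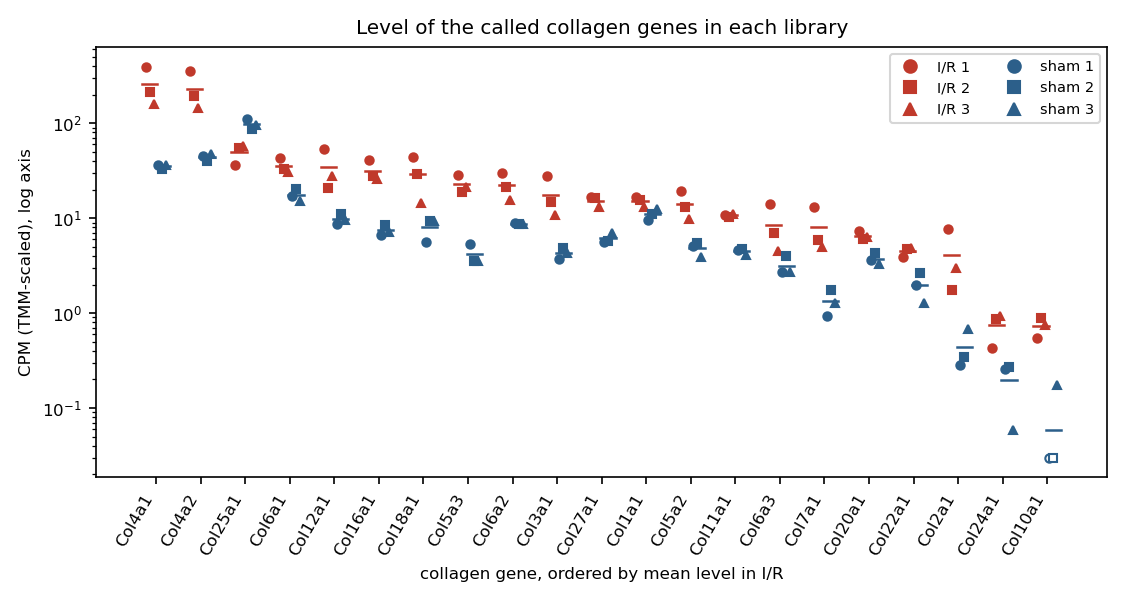
TMM-scaled CPM on a log axis (y axis) of the 21 called collagen genes (x axis) in each library, with red symbols for I/R, blue symbols for sham, shapes for replicates and short lines for group means. Open symbols at the bottom are the sham libraries with 0 reads of Col10a1. The red symbols lie above the blue ones for all genes shown but Col25a1, where they lie below.

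Fibril-associated collagens sit on the surface of fibrils. Of the 9 measured, 4 rose and 5 were not called. Col16a1 had 41.0, 28.0 and 25.8 CPM in I/R against 6.64, 8.47 and 7.14 CPM in sham. It rose 4.26-fold (log2 fold change 2.09, SE 0.19, edgeR adjusted P = 0.000202) with a wide gap between the groups. Col12a1 had 54.1, 21.0 and 27.6 CPM in I/R against 8.65, 11.0 and 9.65 CPM in sham, with log2 fold change 1.81 (SE 0.33, edgeR adjusted P = 0.00451). I/R replicate 1 lay well above both of the others in its group.

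Col22a1, known from tissue junctions, had 3.87, 4.76 and 4.83 CPM in I/R against 1.96, 2.66 and 1.29 CPM in sham (log2 fold change 1.18, SE 0.28, edgeR adjusted P = 0.0112). Col20a1 had 7.31, 6.06 and 6.27 CPM in I/R against 3.60, 4.25 and 3.31 CPM in sham (log2 fold change 0.81, SE 0.19, edgeR adjusted P = 0.00945). Without I/R replicate 1 the log2 fold changes were 1.28 and 0.73, and neither gene was called in the 4 Ttr-rich libraries alone (adjusted P = 0.0869 and 0.0661). Col20a1 overlaps 9230112E08Rik on the same strand by 739 bases. That gene fell, with log2 fold change -0.70.

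Col19a1, a fibril-associated chain, was level at 12.5, 10.2 and 11.9 CPM in I/R and 13.3, 8.62 and 11.9 CPM in sham (log2 fold change 0.03, SE 0.18). The others not called were Col9a1 at 0.56 (SE 0.46), Col9a2 at 0.10 (SE 0.20), and Col9a3 and Col14a1, which are described with Ttr. Col9a1 lies 8983 bases from Col19a1 on chromosome 1.

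Type VI collagen forms beaded filaments close to cell surfaces, and its 3 classical chains rose. Col6a1 had 42.6, 32.7 and 31.0 CPM in I/R against 17, 20.3 and 15.3 CPM in sham (log2 fold change 1.01, SE 0.15, edgeR adjusted P = 0.00148). Col6a2 had 29.8, 21.4 and 15.7 CPM in I/R against 8.88, 8.72 and 8.75 CPM in sham (log2 fold change 1.34, SE 0.21, edgeR adjusted P = 0.00172). The sham libraries of Col6a2 were nearly identical, and each I/R library was above them. Col6a3 had 14, 6.98 and 4.46 CPM in I/R against 2.73, 3.98 and 2.72 CPM in sham (log2 fold change 1.43, SE 0.40, edgeR adjusted P = 0.0253). I/R replicate 3 lay close to sham replicate 2, and the call was lost without sham replicate 1 (adjusted P = 0.0814) or 3 (0.0789). Col6a4 and Col6a5, chains that can take the place of Col6a3, were not called, with group means of 0.943 to 1.85 CPM and log2 fold changes of -0.05 (SE 0.51) and 0.46 (SE 0.38).

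Col7a1, the anchoring fibril collagen that ties basement membrane to connective tissue, had 13.1, 5.93 and 4.98 CPM in I/R against 0.927, 1.76 and 1.29 CPM in sham. It rose 6.03-fold (log2 fold change 2.59, SE 0.42, edgeR adjusted P = 0.00215), and the groups were clearly apart with I/R replicate 1 the highest.

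Col18a1 and Col15a1 belong to the vessel-associated collagens whose tail can be cut off as endostatin or a related fragment. Col18a1 had 43.6, 29.5 and 14.6 CPM in I/R against 5.59, 9.44 and 9.27 CPM in sham. The groups did not overlap, and the Ttr-poor library was the lowest of each group. The log2 fold change was 1.85 (SE 0.39, edgeR adjusted P = 0.00882), 1.96 in the 4 Ttr-rich libraries (adjusted P = 0.0031) and 1.38 for the Ttr-poor I/R library over the Ttr-poor sham library. Without I/R replicate 1 it was 1.45 and not called (adjusted P = 0.0773). Col18a1 overlaps Slc19a1 on the other strand by 8825 bases, and whether strand was used in counting is not stated. Slc19a1 was not called (log2 fold change -0.18, edgeR adjusted P = 0.311). Col15a1 had a mean of 2.60 ± 0.933 CPM in I/R, beside 3.33 ± 0.545 CPM in sham (SD, n = 3), and was not called (log2 fold change -0.35, SE 0.29). Without I/R replicate 1 it was called lower, at -0.69 (adjusted P = 0.0427).

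Col10a1, the hexagonal network collagen of growth plate cartilage, was close to the detection limit. It had 25, 36 and 30 counts in I/R replicates 1, 2 and 3 and 0, 0 and 6 counts in the sham replicates. The I/R libraries lay at 0.540, 0.897 and 0.747 CPM, and sham replicate 3 at 0.176 CPM. The fitted log2 fold change, 3.66 (SE 1.01, edgeR adjusted P = 0.021), depends on how counts of 0 are treated. With sham replicates 1 and 2 set at a floor of 3 counts each and sham replicate 3 at its value, the mean of I/R was at least 6.67-fold higher. It was 4.15 times sham replicate 3 alone, and without that library at least 9.59-fold above the floor. The fit without sham replicate 3 gave 7.91, which has no counts on the sham side to bound it, and without sham replicate 2 it gave 3.06. The call was lost without I/R replicate 2 (adjusted P = 0.0662), without sham replicate 1 (0.0613) or 2 (0.0688), and in the Ttr-rich libraries alone (0.0992). The body of Col10a1 lies on its whole length of 7105 bases opposite Nt5dc1, which had 1162 reads and was not called (log2 fold change 0.63, edgeR adjusted P = 0.0569).

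Col25a1 was the collagen gene that fell. It encodes a transmembrane collagen made by neurons, known as a component of amyloid plaques. It had 36.0, 54.4 and 57.7 CPM in I/R against 112, 87.4 and 96.9 CPM in sham. All I/R libraries lay below all sham libraries, I/R replicate 1 being the lowest. The log2 fold change was -1.0 (SE 0.18, edgeR adjusted P = 0.00311). Of 8 markers of hippocampal neurons 7 fell and Neurod6, at -1.44, was not called. Their summed level was 1888, 4218 and 4842 CPM in I/R replicates 1, 2 and 3, lowest in the same library as Col25a1, and none was at 0. The part of these markers in the fall of Col25a1 was not tested.

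The remaining transmembrane collagens were not called. Col23a1 was level in all libraries, at 13.0, 13.8 and 12.2 CPM in I/R and 11.6, 13.6 and 12.8 CPM in sham (log2 fold change 0.04, SE 0.13). For Col13a1 the log2 fold change was 0.04 (SE 0.33), and for Col17a1 it was -0.09 (SE 0.65). Col26a1 and Col28a1, which fit none of these families, were not called at 0.61 (SE 0.29) and 1.07 (SE 0.67). Col26a1 was the gene that was not called although its groups did not overlap, and it was called with scaling by library size alone, at 0.91.

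The rank of the collagen genes per length changed between the groups. FPKM, the authors' count per gene length and library depth, was used for levels between genes. In sham the highest was Col25a1 at 23.0 ± 3.09 FPKM, followed by Col9a3 at 18.4 ± 12.2, Col4a2 at 14.8 ± 1.23 and Col4a1 at 8.83 ± 0.593 FPKM (SD, n = 3). The rank of Col9a3 rested on the Ttr-rich libraries, since it had 18.5 and 30.6 FPKM in sham replicates 2 and 3 but 6.14 FPKM in Ttr-poor sham replicate 1, below Col4a2 at 15.2 and Col4a1 at 9.20 FPKM there. In Ttr-poor I/R replicate 3 it had 6.19 FPKM. In I/R Col4a2 led at 95.2 ± 50.6 FPKM and Col4a1 followed at 79.3 ± 42.3 FPKM, an order that held within each I/R library, before Col16a1 at 17.4 ± 5.52 and Col9a3 at 16.7 ± 9.09 FPKM. Col25a1 was in rank 6 in I/R, and Col16a1 had been in rank 12 in sham. The lengths behind the authors' FPKM were at most those in the length column of the table, and 3.32 times shorter for Col1a1. With that column in place of theirs, the first 4 ranks in sham were the same, Col4a1 came before Col4a2 in I/R and Col16a1 was in rank 6.

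Chains that assemble into one trimer were set side by side in each library, as ratios of FPKM. Col4a1 over Col4a2 was 0.834, 0.834 and 0.829 in I/R against 0.607, 0.608 and 0.580 in sham. These ratios were tight within each group and did not overlap, although the level of both chains varied by over 2-fold between the I/R libraries. The log2 difference was 0.48 (exact two-sided permutation P = 0.1, the smallest that 3 libraries against 3 can give). Col5a1 over Col5a2 was 0.350, 0.484 and 0.506 in I/R against 0.882, 1.08 and 1.12 in sham, again without overlap, with log2 difference -1.21 (exact permutation P = 0.1).

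The other pairs overlapped between the groups. Col1a1 over Col1a2 was 0.716, 0.975 and 1.12 in I/R against 0.846, 0.709 and 0.684 in sham (exact permutation P = 0.2). Col6a1 over Col6a2 was 2.56, 2.74 and 3.54 in I/R against 3.43, 4.17 and 3.14 in sham (exact permutation P = 0.3). With Benjamini-Hochberg adjustment over the 4 pairs, the values for the exact permutation tests were 0.2, 0.2, 0.267 and 0.3. Ratios of raw counts gave the same log2 differences, since gene length drops out.

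**Figure D4:**
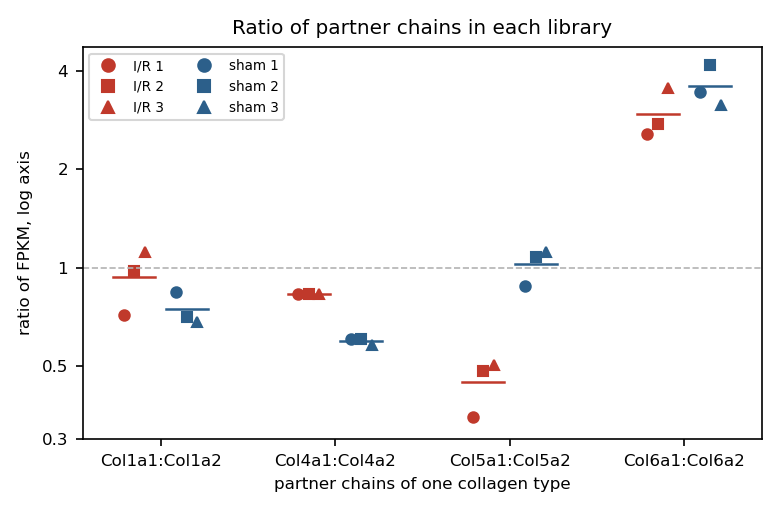
Ratio of FPKM on a log axis (y axis) for 4 pairs of partner chains (x axis) in each library, red for I/R and blue for sham, with shapes for replicates and short lines for group means. Col4a1:Col4a2 is higher and Col5a1:Col5a2 lower in every I/R library than in any sham library, while the other pairs overlap.

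Several collagen genes lie next to each other in the genome, and 6 pairs were less than 150000 bases apart. In 3 of these pairs both genes rose, Col4a1 with Col4a2, Col3a1 with Col5a2, and Col6a1 with Col6a2, the last 87280 bases apart on chromosome 10. In the other 3, Col4a5 with Col4a6, Col9a1 with Col19a1, and Col6a4 with Col6a5, neither gene was called. None of these 6 pairs held a called gene beside one that was not. Beyond the limit, Col6a1 and Col18a1 on chromosome 10 both rose, while on chromosome 2 Col20a1 rose and Col9a3 was not called. The same count was not taken over neighbouring genes of the whole table, so there is no background for these pairs.

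Some collagen genes were higher in the Ttr-rich libraries than in the Ttr-poor library of both groups. A gene was taken to follow Ttr where I/R replicates 1 and 2 were each over 1.5 times I/R replicate 3 and sham replicates 2 and 3 each over 1.5 times sham replicate 1. Col8a1, Col8a2, Col9a3, Col14a1 and Col18a1 did so, 5 of the 42 collagen genes beside 1.80% of all genes tested. Within I/R, Col8a1, Col8a2 and Col9a3 were highest in replicate 2, as Ttr was. Col14a1 and Col18a1 were highest in replicate 1, as were many other genes. At 2 times in place of 1.5, Col8a1, Col8a2 and Col9a3 met the rule, beside 1.03% of all genes. Since the libraries were told apart by a measured gene, this is a description. Of 12 choroid plexus markers 10 followed Ttr by the same rule and 0 were called between I/R and sham. Ttr is itself among these 10, a place fixed by the way the libraries were told apart. The lack of calls does not show that the groups were level, since the spread within each group was wide. The median log2 fold change of the 12 markers was -0.97. It was -0.42 (SE 2.21) for Ttr and -1.94 (SE 0.65, edgeR adjusted P = 0.056) for Sostdc1. The summed level of the 12 was 1624, 3686 and 46.3 CPM in I/R and 45.8, 2806 and 4634 CPM in sham. Of this, Ttr alone held 1481, 3454 and 20.2 CPM in I/R and 9.91, 2509.9 and 4116 CPM in sham. Slc4a5, one of these markers, had 2 counts in I/R replicate 3 and 1 count in sham replicate 1.

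Col8a1 and Col8a2 encode the chains of type VIII collagen, a hexagonal lattice best known from the Descemet membrane of the cornea. Their promoter windows are shown because the 2 genes lie on different chromosomes and their levels ran together over the libraries, at chr16:57754688-57754987 on the minus strand and chr4:126286544-126286843 on the plus strand (GRCm38.p6, RefSeq). The capitals mark matches to the GC box, 4 in Col8a1 and 3 in Col8a2.
Col8a1: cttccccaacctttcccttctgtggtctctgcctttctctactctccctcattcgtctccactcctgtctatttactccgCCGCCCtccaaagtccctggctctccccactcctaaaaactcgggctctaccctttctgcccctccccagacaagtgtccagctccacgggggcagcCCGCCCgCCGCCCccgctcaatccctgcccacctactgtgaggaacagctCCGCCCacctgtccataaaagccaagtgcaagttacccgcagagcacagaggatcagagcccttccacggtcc
Col8a2: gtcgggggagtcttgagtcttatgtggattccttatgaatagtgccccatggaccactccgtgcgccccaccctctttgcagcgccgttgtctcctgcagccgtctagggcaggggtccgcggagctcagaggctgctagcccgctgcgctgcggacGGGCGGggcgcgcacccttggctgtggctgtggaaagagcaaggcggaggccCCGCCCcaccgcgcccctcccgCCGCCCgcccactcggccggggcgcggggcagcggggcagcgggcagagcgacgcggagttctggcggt
Neither window held a match to the CCAAT box, the TATA box or the AP-1 letters.

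Col8a1 had 14.2, 25.7 and 3.51 CPM in I/R and 1.39, 12.7 and 22.9 CPM in sham. Col8a2 had 13.2, 15.6 and 3.91 CPM in I/R and 2.70, 12.3 and 20.9 CPM in sham. In both genes the Ttr-poor library was the lowest of its group by a wide margin, and the groups overlapped from end to end. The mean of the rich libraries over the poor one was 5.69 in I/R and 12.8 in sham for Col8a1, and 3.69 and 6.13 for Col8a2. Between I/R and sham the log2 fold changes were 0.24 (SE 1.11) and -0.13 (SE 0.79), and neither was called. Within the 4 Ttr-rich libraries they were 0.16 and -0.20, and the ratio of the Ttr-poor I/R library to the Ttr-poor sham library was 1.34 and 0.53 on the log2 scale, for 1 library against 1 and with no replicate check.

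Col9a3, a chain of the fibril-associated type IX collagen, had 28.6, 33.1 and 9.14 CPM in I/R and 10.6, 32.4 and 52.9 CPM in sham. Its rich-over-poor ratios were 3.38 and 4.04, and its log2 fold change was -0.43 (SE 0.71). Its partner chains Col9a1 and Col9a2 did not follow Ttr. Col9a2 had ratios of 1.06 and 1.01. Col14a1 followed Ttr at a low level, with 1.64, 1.27 and 0.697 CPM in I/R and 0.618, 1.52 and 2.08 CPM in sham (log2 fold change -0.21, SE 0.48).

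Col4a4 and Col17a1 differed by replicate in sham but not to the same degree in I/R. Their ratios of Ttr-rich over Ttr-poor libraries were 6.87 and 7.97 in sham and 1.91 and 1.36 in I/R, and neither met the rule.

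**Figure D5:**
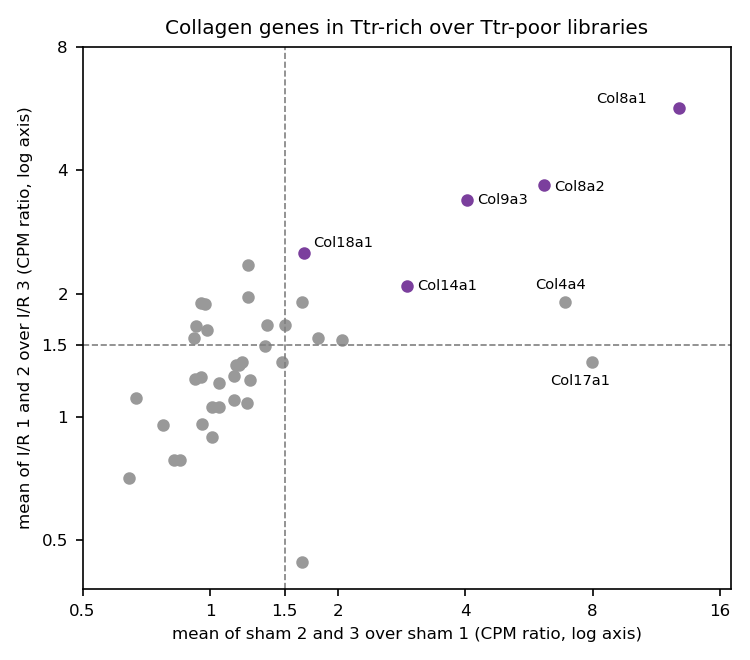
Ratio of CPM in the Ttr-rich over the Ttr-poor libraries in sham (x axis) and in I/R (y axis), both on log axes, for the collagen genes except Col10a1, which had no reads in sham replicate 1. Purple points follow Ttr, which needs each rich library to be over 1.5 times the poor one, and dashed lines mark a mean ratio of 1.5. Col8a1 (12.8 and 5.69) lies farthest out, followed by Col8a2 and Col9a3.

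RefSeq promoter windows were found for 34 of the 42 collagen genes, as 37 windows of 300 bases. Of these, 22 held the GC box GGGCGG on either strand, or 59.5%, beside 35.7% of 32851 windows of all genes. The CCAAT box was in 13 (35.1%, beside 37.4%), TATAAA in 5 (13.5%, beside 13.6%) and TGANTCA, the letters bound by AP-1 factors, in 1 (2.7%, beside 7.8%). Among the 17 windows of genes that rose, 10 held the GC box, 7 the CCAAT box, 2 TATAAA and 1 TGANTCA. The GC box was about as frequent in these windows as in all 37 collagen windows. The motifs are short, and these matches are letters and not known sites.

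Genes that make, process and sense collagen were measured beside the chains. Of 44 such genes 42 were tested, of which 20 rose, 3 fell and 19 were not called, beside 17.2% of all genes tested called higher and 16.3% called lower. Among the genes for chain modification and folding, 9 of 18 rose and 0 fell. Serpinh1, the collagen chaperone HSP47, had 191, 88.0 and 68.4 CPM in I/R against 16.7, 21.2 and 23.6 CPM in sham, a 5.66-fold rise (log2 fold change 2.50, SE 0.39, edgeR adjusted P = 0.00304). I/R replicate 1 was the highest, as for Col4a1. P4ha3, a prolyl 4-hydroxylase subunit, rose 4.85-fold (log2 fold change 2.28, SE 0.28), while P4ha1, at 0.13 (SE 0.11), and P4ha2, at 0.26 (SE 0.13), were not called.

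Among the genes for propeptide removal and cross-linking 7 of 15 rose and 3 fell. Lox, the lysyl oxidase that starts cross-links between chains, had 12.4, 9.94 and 4.88 CPM in I/R against 1.21, 0.795 and 0.848 CPM in sham. The groups were far apart, and it rose 9.52-fold (log2 fold change 3.25, SE 0.37, edgeR adjusted P = 0.000464). Its relatives Loxl2 and Loxl4 rose 6.08-fold and 3.42-fold. Loxl4 followed Ttr, and its call was lost without I/R replicate 1 (adjusted P = 0.0742) or 2 (0.0743), without sham replicate 1 (0.0992), 2 (0.103) or 3 (0.0516), and in the Ttr-rich libraries alone (0.0528). The proteinases that cut the C-terminal propeptide, Bmp1 and Tll1, rose 2.44-fold and 3.12-fold. The genes that fell, named after their values were seen, were Adamts2 and Adamts3, which cut the N-terminal propeptide, and Pxdn, which cross-links type IV collagen. Their log2 fold changes were -1.03 (SE 0.20), -0.63 (SE 0.15) and -0.29 (SE 0.10). The call for Pxdn was lost without any 1 of I/R replicates 1 and 2 and sham replicates 1, 2 and 3, with values of -0.32 to -0.23. It was also lost with no filter on low counts (adjusted P = 0.051), with Ttr as a covariate (0.0534), in the Ttr-rich libraries alone (0.106) and with scaling by library size alone, where the value was -0.02. The call for Adamts3 was lost with that scaling (-0.36) and in the Ttr-rich libraries alone (-0.64).

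Among the receptors 4 of 9 tested rose and 0 fell. Itgb1, the shared beta chain of the collagen-binding integrins, had 221, 179 and 157 CPM in I/R against 68.3, 69.2 and 71.9 CPM in sham (2.66-fold, log2 fold change 1.41, SE 0.13, edgeR adjusted P = 0.000195). Ddr2, a receptor tyrosine kinase for fibrillar collagen, rose 2.70-fold. Itga2 rose 6.79-fold from 0.335, 0.174 and 0.0878 CPM in sham to 0.497, 2.62 and 1.05 CPM in I/R. Its log2 fold change, 2.76 (SE 0.70, edgeR adjusted P = 0.0151), was 1.91 without I/R replicate 2, where the call was lost (adjusted P = 0.0721), as it was without sham replicate 2 (0.0724) or 3 (0.0607), and it was 3.35 without sham replicate 1.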

How the data were processed

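Bulk RNA-seq gene counts from 6 hippocampus libraries, 3 I/R and 3 sham, were analysed, with groups and replicate numbers from the sample titles. The authors aligned the reads with TopHat2 to an Ensembl genome and counted them per gene with HTSeq, and the deposited table holds these raw counts. Identifiers and coordinates are those of Ensembl's BALB/cJ annotation, although the mice were C57BL/6 per the labels and C57BL/6J per the study's methods. Whether counting used strand, and how reads on overlapping genes were treated, is not given in the sources used here. The authors also deposited FPKM, which uses 1 fixed length per gene, and their own P-values, which were not used. The table had 41390 lines for 41386 genes, because 4 had been split, and these were rejoined.

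The counts went into edgeR 4.0.16 under R 4.3.3 (TMM scaling, glmQLFit with robust estimation, glmQLFTest, no covariates) on genes with 10 or more reads over the 6 libraries, with Benjamini-Hochberg adjustment over all of them. The SE of a log2 fold change was derived from it and the F value. Levels are TMM-scaled CPM, given for each library or as mean ± SD. Ratios of partner chains were compared by exact permutation tests. A fold against libraries without reads is a bound from a floor of 3 counts per library, which covers counting error only. Alternatives were other scalings, filters, DESeq2 1.42.0, call rules, each library left out, a replicate block, Ttr as a covariate and the Ttr-rich libraries alone. Promoter windows came from RefSeq on GRCm38.p6, and no BALB/cJ coordinate was carried over to that build.

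The collagen genes, the lists of synthesis genes, receptors and cell type markers and the tests were chosen with earlier results of these data known. Values in every library are given for collagen genes that were called, had a group mean of 10 or more CPM, followed Ttr or were compared as partner chains, and for some of the processing genes and receptors. Of those, genes called with a fold change over 2 were named, at most 10 by size.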

Additional observations from a re-analysis of the deposited data

How the results depend on the processing

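The count of 21 called collagen genes was 23 with scaling by library size alone, 16 in the 4 Ttr-rich libraries, 20 with Ttr as a covariate and 17 to 22 with 1 library left out, and DESeq2's Wald test also gave 21. Over all genes the count of 7688 was 5177 to 8124 with 1 library left out and 2937 at a fold change over 2. Of the synthesis and receptor genes 14 were called at that fold change, and 3 collagen genes followed Ttr over 2 times. Deviations of same-numbered libraries correlated at -0.159, 0.071 and -0.282 over 15479 genes. Differently numbered libraries were not set beside them, so this check cannot decide whether the replicate numbers pair the libraries. With the replicate block 18 collagen genes and 6391 genes in all were called, and Col1a1 (edgeR adjusted P = 0.101), Col18a1 (0.0516), Col24a1 (0.0745), Loxl4 (0.0945) and Pxdn (0.098) were not. Reversed signs were found only among collagen genes that were not called, and the cause was not tested. With scaling by library size alone the log2 fold change was 0.02 for Col4a4, 0.23 for Col6a4, 0.08 for Col14a1, 0.16 for Col8a2 and 0.19 for Col17a1. In the fit with the replicate block it was 0.02 for Col4a4, 0.01 for Col6a4, 0.11 for Col8a2, -0.02 for Col13a1 and 0.23 for Col17a1. With Ttr as a covariate it was 0.05 for Col4a4, 0.05 for Col8a2 and 0.25 for Col17a1. With 1 library left out it ranged from -0.92 to 0.45 for Col4a4, -0.26 to 0.48 for Col4a6, -0.56 to 0.62 for Col6a4, -0.57 to 0.18 for Col14a1, -0.13 to 0.17 for Col19a1, -0.11 to 0.23 for Col9a2, -0.85 to 0.14 for Col9a3, -0.12 to 0.37 for Col1a2, -0.48 to 1.04 for Col8a1, -0.60 to 0.54 for Col8a2, -0.35 to 0.23 for Col13a1, -0.59 to 0.55 for Col17a1 and -0.02 to 0.09 for Col23a1.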

Other observations

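Of the synthesis genes that were not called, P3h2, Pcolce and Pcolce2 followed Ttr by the same rule as Col8a1. Pcolce, which speeds the removal of the C-terminal propeptide, had 15.2, 16 and 8.02 CPM in I/R replicates 1, 2 and 3 and 6.80, 13.5 and 19.2 CPM in the sham replicates. Pcolce2 had 8.15, 9.37 and 3.71 CPM in I/R and 4.12, 9.76 and 13.4 CPM in sham. The groups overlapped for both genes, and the Ttr-poor library was the lowest of each group.

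Other cell type markers moved in both directions. Of 9 markers of pericytes and smooth muscle 3 rose and 4 fell, with a summed level of 239.9 to 296 CPM in I/R and 270.3 to 308 CPM in sham. Of 7 markers of macrophages and microglia 4 rose, among them Cd68 and Mrc1, and P2ry12 fell, with a summed level of 203 to 308 CPM in I/R and 157 to 183 CPM in sham. Of 6 astrocyte markers Gfap and Aqp4 rose and 3 fell.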
